A study of Mus musculus with 12 samples.

Results

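The guanylate-binding proteins (GBPs) of the mouse are large GTPases whose genes lie in a cluster on chromosome 3 and another on chromosome 5. The family was followed here through the m6A peaks whose gene annotation holds Gbp2, Gbp3, Gbp5 or Gbp7 (chromosome 3) or Gbp4, Gbp6, Gbp9 or Gbp10 (chromosome 5). This rule took 21 of 37118 peaks, 9 on chromosome 3 and 12 on chromosome 5, and covered all 8 genes. The peaks come from MeRIP-seq of liver, which sequences RNA fragments pulled down by an antibody to N6-methyladenosine (m6A), the most common internal modification of mRNA. The 3 cadmium samples are livers of male wild-type C57BL/6 mice gavaged daily with CdCl2 at 20 mg/kg for 90 days. The 3 control samples are livers of the same kind of mouse at 0 mg/kg/day, also at day 90. The labels give the mice as 6 to 8 weeks old, which cannot be their age at day 90 of dosing. They also give 6 animals per group without saying how these map to the 3 samples. Cadmium is an environmental toxicant that the liver takes up, and the comparison asks how the peaks differ after long exposure. Total counts in peaks were 40174736 to 51205200 in cadmium samples and 46474259 to 52338612 in control samples, and the hepatocyte markers Alb, Apoa1 and Ttr were abundant in all 6 samples.

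Guanylate-binding proteins are made in response to interferons, above all interferon-gamma, and gather on the vacuoles or surfaces of microbes inside the cell. There they help to break the microbe's compartment and can feed inflammasomes, the complexes that activate inflammatory caspases. They act beside the immunity-related GTPases (such as Irgm1 and Iigp1) and need parts of the autophagy machinery to reach their targets. In liver, macrophages, endothelial cells and hepatocytes can all respond to interferon, and a whole-liver sample cannot tell more cells of a type from more RNA per cell. The peak counts carry a similar limit. A higher count can come from more RNA of the gene, from a larger methylated share, or from both, since input counts were not used here.

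Interferon-responsive genes are commonly read through the interferon-stimulated response element (ISRE, searched as GAAA, any 2 bases, GAAA on both strands) and the gamma-activated site (GAS, TTCNNNGAA, which reads the same on both strands). RefSeq start-site windows (GRCm38.p6, 250 bases before to 50 after the start) were found for 4 of 8 members, Gbp2, Gbp3, Gbp5 and Gbp7, with 5 windows in all. The promoters of Gbp4, Gbp6, Gbp9 and Gbp10 were not analysed here. Each of the 4 genes had an ISRE match in a window, which 3.44% of 32851 windows of the same length hold. Gbp5 and Gbp7 also held 2 GAS matches each (8.3% of windows hold one), while the second window of Gbp3 held neither motif. The stretches around the matches are shown because they are the sequence feature these genes share, with matches in capitals. All are printed from the plus strand, the strand of these genes, and all matches lie before the start. The ISRE letters matched on the minus strand, so they read as TTTC in the printed lines. Overlapping matches in Gbp3 run together. A match is not a measured binding site.
Gbp2, chr3:142620574-142620643: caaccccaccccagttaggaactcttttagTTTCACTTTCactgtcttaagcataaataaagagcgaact
Gbp3, chr3:142559969-142560043: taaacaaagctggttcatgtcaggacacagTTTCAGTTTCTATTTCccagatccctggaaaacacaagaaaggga
Gbp7, chr3:142530200-142530322: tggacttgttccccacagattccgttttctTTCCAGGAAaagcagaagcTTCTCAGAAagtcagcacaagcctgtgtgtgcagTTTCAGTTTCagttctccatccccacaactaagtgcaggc
Gbp5, chr3:142496684-142496920: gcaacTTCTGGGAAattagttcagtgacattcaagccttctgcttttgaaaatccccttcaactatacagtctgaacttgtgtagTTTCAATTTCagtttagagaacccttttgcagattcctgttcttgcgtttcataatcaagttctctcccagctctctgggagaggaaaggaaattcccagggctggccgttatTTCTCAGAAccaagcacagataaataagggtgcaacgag

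Counts were compared between 3 cadmium and 3 control samples with edgeR's quasi-likelihood F test over all 37088 peaks that passed its filter on low counts. A peak was called at a Benjamini-Hochberg adjusted p below 0.05. All 21 Gbp peaks were tested. Cadmium livers were higher at 9 peaks and lower at 0, where 6.27% of all tested peaks were called, 3.55% higher and 2.72% lower. The groups did not overlap, with cadmium higher, at 16 of the 21, where this held for 14.4% of all tested peaks. The 9 calls were all on chromosome 5: the 4 peaks of Gbp10, the 2 of Gbp6 and 3 of Gbp9. None of the 9 chromosome 3 peaks was called by this test, although 3 of them had an unadjusted p below 0.05 (21.8% of all tested peaks did, in either direction) and 1 was called by DESeq2. This test left out the batch, which pairs the samples. With the batch in the model (the replicate block) 12 Gbp peaks were called, 11 on chromosome 5 and 1 on chromosome 3, where 3144 of all tested peaks were called. The log2 change of cadmium over control was above 0 at all 21 peaks. Its median was 1.32 on chromosome 5 (range 0.63 to 1.86) and 0.36 on chromosome 3 (range 0.19 to 0.93), beside a median near 0 over all tested peaks (-0.0031).

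**Figure D1:**
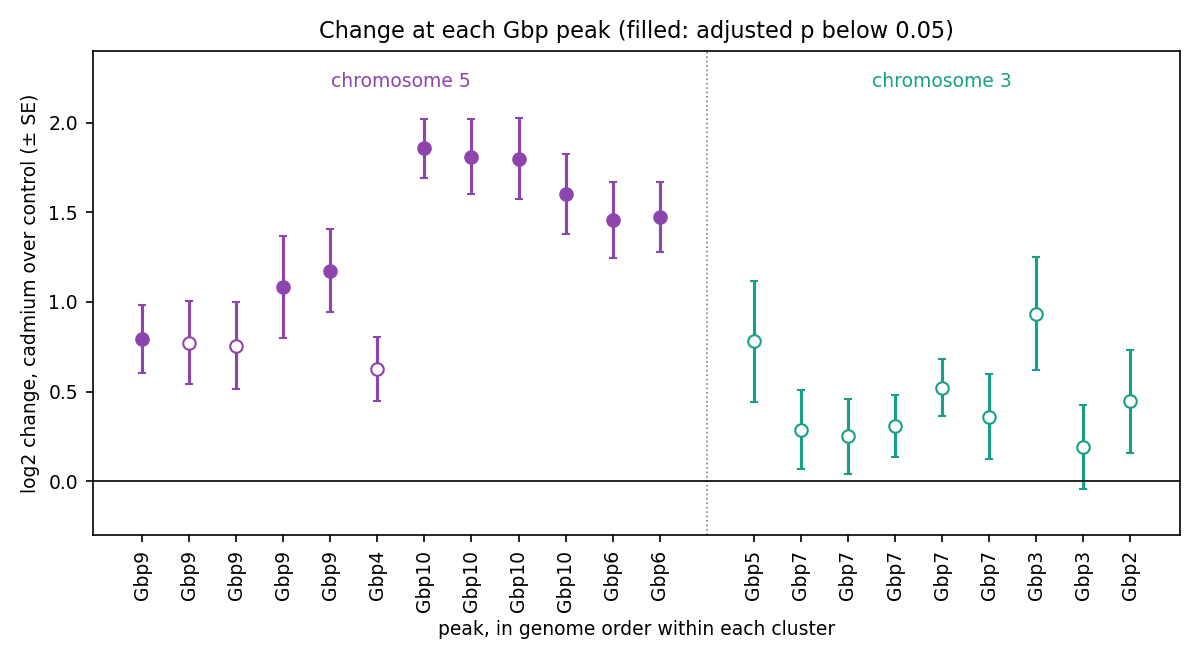
Log2 change of cadmium over control (y axis, bars are the approximate SE from edgeR, 3 samples per group) at each of the 21 Gbp peaks (x axis, genome order within each cluster, genes as placed by RefSeq), with filled points for adjusted p below 0.05. The 4 Gbp10 and 2 Gbp6 peaks lie highest at 1.46 to 1.86, the Gbp9 and Gbp4 peaks between 0.63 and 1.17, and the 9 open points of chromosome 3 between 0.19 and 0.93.

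Gbp10, which in mouse macrophages contributes to defence against bacteria, held the peak with the highest log2 change among the 8 members. Reads may be split between Gbp10 and Gbp6, so the order of these genes is uncertain. The most abundant Gbp10 peak, chr5:105216807-105217528 (mm10), had 888, 1363 and 1262 counts in cadmium samples 1, 2 and 3, against 360, 338 and 270 in control samples 1, 2 and 3. Scaled to a common library size with TMM (normalised counts, CPM), these are 21.0, 24.7 and 27.5 CPM in cadmium livers, against 7.33, 6.73 and 6.12 CPM in control livers. The lowest cadmium sample stood well above the highest control sample. The peak was 3.62-fold higher in cadmium livers (24.4 ± 3.24 CPM, against 6.73 ± 0.608 CPM in control livers, SD, n = 3 each, log2 change 1.86, SE 0.16, adjusted p = 0.000883). The next 2 peaks of the gene gave nearly the same change. At chr5:105218318-105218619 cadmium livers had 8.75, 13.2 and 14.2 CPM, against 3.75, 3.49 and 3.06 CPM in control livers (log2 change 1.81, SE 0.21, adjusted p = 0.00151). At chr5:105218906-105219011 cadmium livers had 5.60, 7.76 and 7.38 CPM, against 1.73, 2.57 and 1.65 CPM in control livers (log2 change 1.80, SE 0.23, adjusted p = 0.00217). In both, every cadmium sample exceeded every control sample. The remaining peak lies at the other end of the gene, chr5:105239375-105239508, with 4.47, 6.85 and 7.09 CPM in cadmium livers and 1.83, 2.29 and 1.95 CPM in control livers (log2 change 1.60, SE 0.22, adjusted p = 0.00336). Across all 4 peaks cadmium sample 1 was the lowest of its group.

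Gbp6, the neighbour of Gbp10 and also tied to antibacterial defence in mouse macrophages, rose at both of its peaks. The larger, chr5:105272661-105273325, had 20.7, 22.2 and 23.0 CPM in cadmium livers, against 5.99, 10.9 and 7.09 CPM in control livers. The cadmium samples were close together, while control sample 2 was higher than the other control samples. The peak was 2.75-fold higher in cadmium livers (log2 change 1.46, SE 0.21, adjusted p = 0.00454). The second, chr5:105274123-105274344, had 7.05, 8.66 and 9.16 CPM in cadmium livers and 2.63, 3.65 and 2.67 CPM in control livers (2.78-fold, log2 change 1.47, SE 0.20, adjusted p = 0.00284). All 6 peaks of Gbp10 and Gbp6 also carry the symbol Gm43302 in the deposited annotation, and no other peak carries it. RefSeq places 4 of the 6 in Gbp10 and 2 in Gbp6, and the first Gbp10 peak also overlaps the long noncoding RNA gene Gm31785. Both genes are close relatives, so reads may be split between them, and their separate values are uncertain. These 6 peaks were called under each of the 12 alternatives tried, with log2 changes of 1.29 to 2.03.

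Gbp9 rose at 3 of the 5 peaks that RefSeq places in it, all annotated to Gbp8 as well. The clearest, chr5:105083593-105083705, had 3.88, 4.12 and 3.07 CPM in cadmium livers, against 1.87, 1.75 and 1.27 CPM in control livers (2.26-fold, log2 change 1.17, SE 0.23, adjusted p = 0.0161). The peak at chr5:105082666-105082900 had 4.30, 3.87 and 3.24 CPM in cadmium livers and 1.85, 2.45 and 1.06 CPM in control livers (log2 change 1.08, SE 0.28, adjusted p = 0.0489). The peak at chr5:105079450-105079740 had 4.59, 4.41 and 4.74 CPM in cadmium livers and 2.81, 2.95 and 2.15 CPM in control livers (log2 change 0.79, SE 0.19, adjusted p = 0.0342). In none of these did the groups overlap, and control sample 3 was the lowest sample each time. The other 2 peaks had log2 changes of 0.77 (SE 0.23, adjusted p = 0.0744) and 0.76 (SE 0.24, adjusted p = 0.0928). With the replicate block the one of 0.77 had an adjusted p of 0.039. The Gbp9 calls depended on single samples. At the first, leaving out cadmium replicate 2 gave an adjusted p of 0.0511 and leaving out control replicate 3 gave 0.0553. The second (adjusted p 0.0871 to 0.116) and the third (0.0575 to 0.148) were each lost when any 1 sample other than control replicate 2 was left out, and the second also with RLE scaling (0.0508). The fourth, at 0.76, was called without control replicate 2 (adjusted p = 0.036).

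Gbp4 had a single peak, chr5:105117709-105118445, which the deposited annotation assigns to Gbp8, Gbp9 and Gbp4 and which overlaps only Gbp4 in RefSeq. It had 9.79, 8.50 and 7.97 CPM in cadmium livers and 5.83, 6.57 and 4.60 CPM in control livers. Every cadmium sample was above every control sample. The log2 change of 0.63 (SE 0.18) did not pass the test (adjusted p = 0.0675), but did with the replicate block (adjusted p = 0.0427).

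On chromosome 3, Gbp7 carried 5 peaks and by far the largest counts. In mouse macrophages its protein takes part in antibacterial killing and in control of parasite vacuoles. Its most abundant peak, chr3:142547665-142548551, which also carries the symbol Gm43802, had 1379, 2103 and 1466 counts in cadmium livers and 1067, 1384 and 978 counts in control livers. These are 32.6, 38.0 and 31.9 CPM in cadmium livers and 21.7, 27.6 and 22.2 CPM in control livers. The groups did not overlap, but the step was small, 1.44-fold (log2 change 0.52, SE 0.16, adjusted p = 0.0807). With the replicate block this peak passed (log2 change 0.52, adjusted p = 0.0411). The other large Gbp7 peak, chr3:142546367-142547462, had 25.2, 29.6 and 23.2 CPM in cadmium livers and 19.2, 25.2 and 18.6 CPM in control livers (log2 change 0.31, SE 0.17, adjusted p = 0.331). Here the groups overlapped, because control sample 2 was above cadmium sample 3 and level with cadmium sample 1. The 3 smaller Gbp7 peaks had log2 changes of 0.25 to 0.36 and overlapping groups.

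Gbp2, Gbp3 and Gbp5 had few counts, 26 to 113 per sample and peak, and none of their 4 peaks was called. Gbp5, which has been linked to assembly of the NLRP3 inflammasome, had 1.18, 1.83 and 1.04 CPM in cadmium livers and 0.754, 1.02 and 0.589 CPM in control livers at chr3:142521044-142521155. The groups came close without overlapping (log2 change 0.78, SE 0.34, adjusted p = 0.208). Gbp3 had 1.28, 2.03 and 1.83 CPM in cadmium livers and 0.611, 0.996 and 1.09 CPM in control livers at chr3:142570982-142571129 (log2 change 0.93, SE 0.32, adjusted p = 0.112). Its other peak, chr3:142573001-142573160, had 1.73, 1.65 and 2.07 CPM in cadmium livers and 1.59, 1.63 and 1.54 CPM in control livers (log2 change 0.19, SE 0.23, adjusted p = 0.691). So the 2 peaks of Gbp3 gave unlike values, which were not shown to differ (within-gene test, unadjusted p = 0.202 and 0.318). Gbp2, which mice need to control Toxoplasma, had 1.56, 2.04 and 1.44 CPM in cadmium livers and 0.957, 1.59 and 1.16 CPM in control livers at chr3:142637418-142637619. Its groups overlapped (log2 change 0.45, SE 0.29, adjusted p = 0.411).

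**Figure D2:**
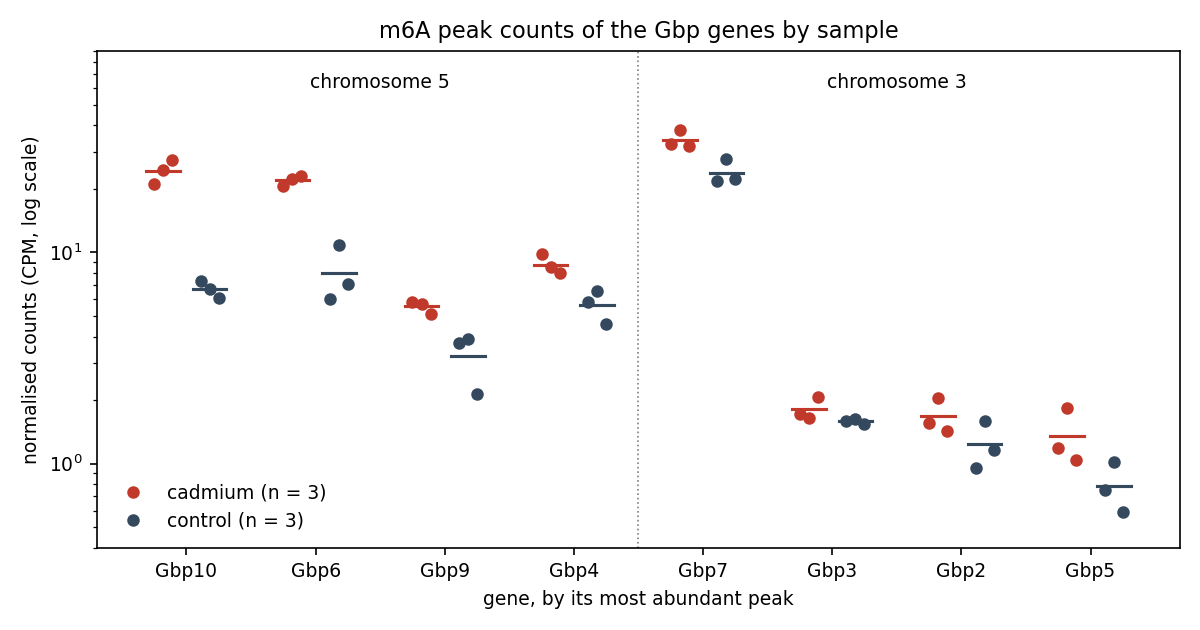
Normalised counts (CPM, log scale, y axis) of the most abundant peak of each Gbp gene (x axis; for Gbp9 the most abundant of the 5 peaks that RefSeq places in it) in 3 cadmium (red) and 3 control (dark) samples, with bars at the group means. Gbp10 and Gbp6 show the widest gaps (24.4 against 6.73 and 21.9 against 7.98 CPM), while Gbp7 shows a small one at the highest level (34.2 against 23.8 CPM).

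The clusters were also compared as sums. The 12 chromosome 5 peaks together held 99.0, 113 and 116 CPM in cadmium samples 1, 2 and 3, against 41.0, 49.8 and 35.3 CPM in control samples 1, 2 and 3. That is 109 ± 9.04 CPM in cadmium livers and 42.0 ± 7.32 CPM in control livers (SD, n = 3 each), 2.60-fold. The 9 chromosome 3 peaks held 72.8, 85.1 and 70.7 CPM in cadmium samples and 53.2, 65.7 and 52.2 CPM in control samples. That is 76.2 ± 7.78 CPM in cadmium livers and 57.05 ± 7.49 CPM in control livers (SD, n = 3 each), 1.34-fold. The groups did not overlap in either cluster. The ratio of the chromosome 5 sum to the chromosome 3 sum was 1.36, 1.33 and 1.64 in cadmium livers and 0.771, 0.759 and 0.675 in control livers. These sums cover 3993 and 3306 bases of peak. Per length, chromosome 5 held 24.8 to 29.0 CPM per kb in cadmium livers and 8.83 to 12.5 CPM per kb in control livers. Chromosome 3 held 21.4 to 25.7 CPM per kb in cadmium livers and 15.8 to 19.9 CPM per kb in control livers. Per length, the ranges of the clusters overlapped in cadmium livers, although chromosome 5 was the higher within each cadmium sample. In control livers chromosome 5 was the lower. The log2 ratio of chromosome 3 over chromosome 5 averaged -0.52 ± 0.16 in cadmium livers and 0.45 ± 0.10 in control livers, a difference of -0.97. This difference was not tested, because the members were chosen with earlier results known, and an exact two-sided permutation of 3 against 3 samples cannot go below 0.1.

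Most of each sum came from few genes. Gbp7 made 69.6 CPM of the chromosome 3 sum in cadmium livers and 52.5 CPM in control livers. Gbp10 and Gbp6 made 79.7 CPM of the chromosome 5 sum in cadmium livers and 25.1 CPM in control livers (3.17-fold). The contrast of the sums was thus mainly that of Gbp10 and Gbp6 with Gbp7. The remaining genes lay closer together, at 1.75-fold for Gbp9 with Gbp4 (29.7 CPM in cadmium livers, 16.9 CPM in control livers) and 1.45-fold for Gbp2, Gbp3 and Gbp5 (6.55 CPM in cadmium livers, 4.51 CPM in control livers).

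The labels number 3 batches with 1 cadmium and 1 control sample each. Within batches 1, 2 and 3 the chromosome 5 sum was 2.41, 2.27 and 3.28 times higher in the cadmium than in the control sample. The chromosome 3 sum was 1.37, 1.296 and 1.35 times higher. The difference between the cluster sums had the same sign in all 3 batches, at -0.82, -0.81 and -1.28 on the log2 scale. At single peaks, all 12 on chromosome 5 and 7 of 9 on chromosome 3 were higher in the cadmium sample of all 3 batches, as were 23.8% of all tested peaks.

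**Figure D3:**
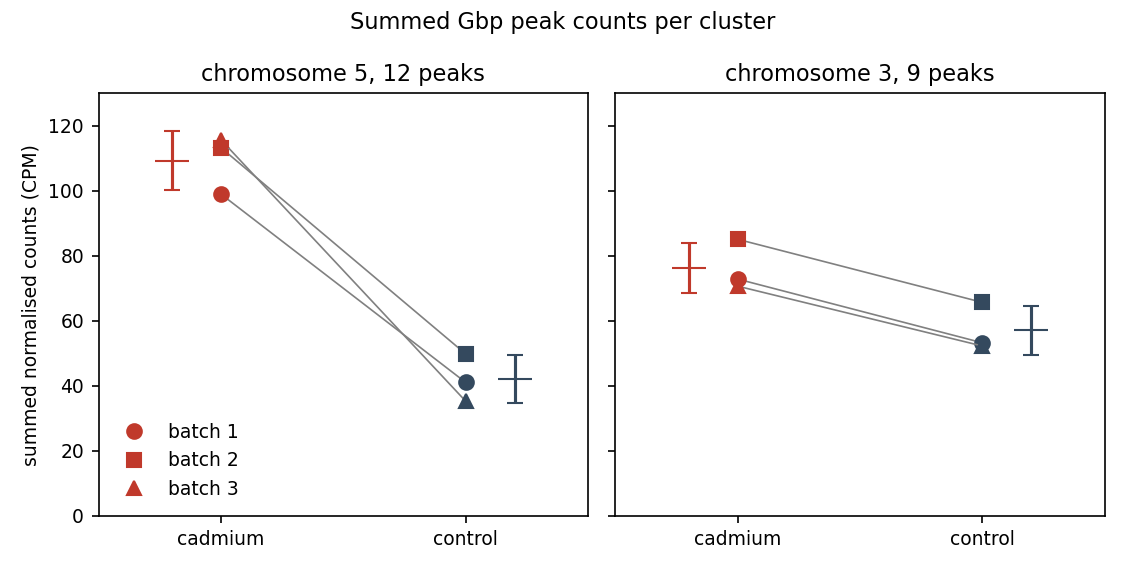
Summed normalised counts (CPM, y axis) of the 12 chromosome 5 peaks (left panel) and the 9 chromosome 3 peaks (right panel) in each cadmium and control sample (x axis), with symbols for the 3 batches, lines joining the samples of a batch, and crosses for the group mean with bars of ± SD (n = 3). The lines fall steeply towards control on chromosome 5 (109 against 42.0 CPM) and gently on chromosome 3 (76.2 against 57.05 CPM).

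Counts were also summed over the peaks of each gene and tested over all genes. Gbp10 led (log2 change 1.78, SE 0.15, adjusted p = 0.000902), then Gbp6 (1.44, SE 0.18, adjusted p = 0.00292) and Gbp9 (0.87, SE 0.19, adjusted p = 0.0199). Gbp5 (0.76, SE 0.32), Gbp4 (0.61, SE 0.18), Gbp3 (0.48, SE 0.19), Gbp2 (0.43, SE 0.27) and Gbp7 (0.39, SE 0.13) followed and were not called, with adjusted p of 0.0612 to 0.353. So 3 of 8 genes were called higher, where 5.96% of 11070 genes were. Between neighbours in this order the gap exceeded the sum of their SEs between Gbp6 and Gbp9 and, barely, between Gbp10 and Gbp6, and nowhere else. Such a gap is not a test between genes, and reads may be split between Gbp10 and Gbp6, so their order is uncertain. Gbp5 of chromosome 3 stood between Gbp9 and Gbp4 of chromosome 5, with a large error.

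Levels can be compared between genes only per length of peak. By the most abundant peak of each gene, Gbp7 had the highest density in both groups, with 38.6 CPM per kb in cadmium livers and 26.9 CPM per kb in control livers. Gbp10 had 33.8 CPM per kb in cadmium livers, second after Gbp7, and 9.33 CPM per kb in control livers, where Gbp6, Gbp9 and Gbp3 were above it. Gbp6 had 33.0 CPM per kb in cadmium livers and 12.0 CPM per kb in control livers. These ranks depended on the peak taken, since the 3 smaller Gbp10 peaks had 40.0 to 65.8 CPM per kb in cadmium livers and 11.4 to 18.9 CPM per kb in control livers. By its most abundant peak Gbp2 was the lowest of the 8, with 8.36 CPM per kb in cadmium livers and 6.15 CPM per kb in control livers.

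The position of the peaks within the genes was not used to choose the members. On chromosome 3, where the 4 genes run along the plus strand, 8 of 9 peaks lay in the last part of the gene, with centres at 78.6% to 99.0% of its RefSeq span. The exception, a Gbp7 peak, lay at 0.548% of the span, over the start. On chromosome 5, where strand was not used here, 11 of 12 peaks lay towards the low-coordinate end, at 6.16% to 21.2% of the span, and the remaining Gbp10 peak at 99.6%. In mammalian mRNA, m6A is known to gather near stop codons and in the last exon. Whether peaks of a gene moved apart was tested with edgeR's diffSpliceDGE over 31942 peaks in genes with at least 2 peaks, of which 0.0689% were called. None of the 18 Gbp peaks in that test was called (lowest unadjusted p 0.202), so the Gbp10 peaks at both ends of the gene were not shown to change by different amounts.

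The remaining genes of the family had 6 peaks of their own. Gbp11, a transcribed pseudogene at the edge of the chromosome 5 cluster, had 5 peaks and was called at 1, chr5:105338671-105338927. It had 2.29, 5.91 and 7.20 CPM in cadmium livers and 1.71, 2.21 and 1.29 CPM in control livers (log2 change 1.56, SE 0.37, adjusted p = 0.0345). Cadmium sample 1 stayed close to the controls at this peak, and at chr5:105336831-105337519 it had 2.48 CPM, against 9.98 and 10.7 CPM in the other cadmium samples and 2.49, 3.15 and 1.47 CPM in control livers (log2 change 1.70, SE 0.46, adjusted p = 0.0548). Cadmium sample 1 thus lay near the controls at these Gbp11 peaks. At the Gbp10 and Gbp6 peaks it was also the lowest of its group, but above every control sample. Without cadmium sample 1 the second Gbp11 peak was called (log2 change 2.13, adjusted p = 0.00681), and the call at the first was lost without any other sample, cadmium or control (0.0553 to 0.152). Gbp8 had 1 peak of its own (log2 change 0.20, SE 0.31, adjusted p = 0.762).

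Genes of other families beside the clusters were not called by edgeR. Within 500 kb, 5 genes with 22 peaks on chromosome 3 and 6 genes with 10 peaks on chromosome 5 were tested. EdgeR called 0 of these peaks, where 6.27% of all tested peaks were called. With so few peaks, 0 calls cannot be told from that share. An unadjusted p below 0.05 was found at 8 of the 22, all in Kyat3, and at 4 of the 10, of which 3 were in Lrrc8d and 1 in Abcg3. Over all tested peaks 21.8% had one. DESeq2 called 1 peak beside each cluster, and 3683 of the 37118 peaks in all. On chromosome 3 the most abundant peak of each had a log2 change of -0.73 to -0.13, below 0 in each, and Kyat3, a kynurenine aminotransferase gene, stood at -0.48 (SE 0.17, adjusted p = 0.124). On chromosome 5 they ran from -0.66 to 0.68 (Abcg3, SE 0.28, adjusted p = 0.189), with Lrrc8d, a subunit gene of volume-regulated anion channels, at 0.53 (SE 0.16, adjusted p = 0.0799).

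The pathway that induces these genes was followed in lists, with each gene represented by its most abundant peak. Over all genes, 4.4% of such peaks were called higher and 2.4% lower, with a median log2 change of 0.015. Of 13 measured genes of interferon-gamma signalling, 1 was higher and 0 lower, with a median of 0.34. The one called was the receptor subunit gene Ifngr2 (26.2 ± 4.02 CPM in cadmium livers, 15.8 ± 0.780 CPM in control livers, SD, n = 3 each, log2 change 0.73, SE 0.16, adjusted p = 0.0249). The other subunit Ifngr1 (0.21) and the kinases Jak1 (-0.27) and Jak2 (0.18) were not called. Irf1, a transcription factor that drives Gbp genes in mouse cells, had 22.4 ± 3.07 CPM in cadmium livers and 14.0 ± 4.99 CPM in control livers (SD, n = 3 each, log2 change 0.68, SE 0.24, adjusted p = 0.129). Ifng itself had no annotated peak among those analysed here.

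Of 19 measured interferon-gamma-induced genes outside the family, 5 were higher and 0 lower, with a median of 0.66. They were the immunity-related GTPase genes Tgtp1 (log2 change 0.95, SE 0.19, adjusted p = 0.0183), Tgtp2 (0.85, SE 0.18, adjusted p = 0.0209) and Gm12250, which encodes Irgb10 (1.14, SE 0.24, adjusted p = 0.0208), with Nlrc5, the activator of MHC class I genes (0.66, SE 0.15, adjusted p = 0.0269), and the peptide transporter Tap1 (0.96, SE 0.22, adjusted p = 0.0312). Tgtp1 and Tgtp2 are near-identical copies that may share reads. The GTPases Irgm1 (182 ± 14.6 CPM in cadmium livers, 158 ± 33.5 CPM in control livers, log2 change 0.21), Irgm2 (0.48), Igtp (0.21) and Iigp1 (0.25) were not called. Of 17 measured genes known for type I interferon responses, 8 were higher and 0 lower, with a median of 0.69. Oasl2, an antiviral protein of the oligoadenylate synthetase family, led with 14.8 ± 2.12 CPM in cadmium livers and 4.92 ± 0.835 CPM in control livers (SD, n = 3 each, log2 change 1.59, SE 0.19, adjusted p = 0.00163). Oas1a (1.49), Ifit2 (1.24), Xaf1 (1.05), Cmpk2 (1.02), Ifit3 (0.95), Isg15 (0.81) and Rnf213 (0.67) were the other calls, while Ifit1 (0.62), Mx2 (0.69), Oasl1 (0.50) and Rsad2 (0.52) were not called. The list calls depended on single samples and on the test. In all, 14 genes of these lists, of the partners below and of Gbp8 and Gbp11 were called, but 21 with DESeq2, 19 with the replicate block (2 of signalling, 6 of the interferon-gamma-induced, 9 of type I, 1 of the partners, and Gbp8 by the peak it shares with Gbp4), 5 without cadmium replicate 2, 2 without cadmium replicate 3 and 3 without control replicate 3. Over all peaks calls also fell, from 2325 to 1659 without cadmium replicate 2, 543 without cadmium replicate 3 and 1078 without control replicate 3. Oasl2 and Ifit2 were called in all 6 leave-outs.

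Of 15 measured partners of the family, the inflammasome and autophagy genes, 0 were called by edgeR, and the median was 0.069. An unadjusted p below 0.05 was found at 4 of the 15, where 21.8% of all tested peaks had one. DESeq2 and the replicate block each called 1. The caspase gene Casp1 (log2 change 0.29) and the pore-forming Gsdmd (0.30) were not called. Nlrp3 (0.92, adjusted p = 0.0962), Pycard (1.01, adjusted p = 0.11) and the cytokine gene Il1b (1.304, adjusted p = 0.0662) had the highest values. The autophagy genes Atg5 (-0.0065), Atg7 (-0.071) and Gabarapl2 (-0.18), whose products help GBPs to reach vacuoles, were near 0, and Atg16l1 stood at -0.49 (adjusted p = 0.115).

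**Figure D4:**
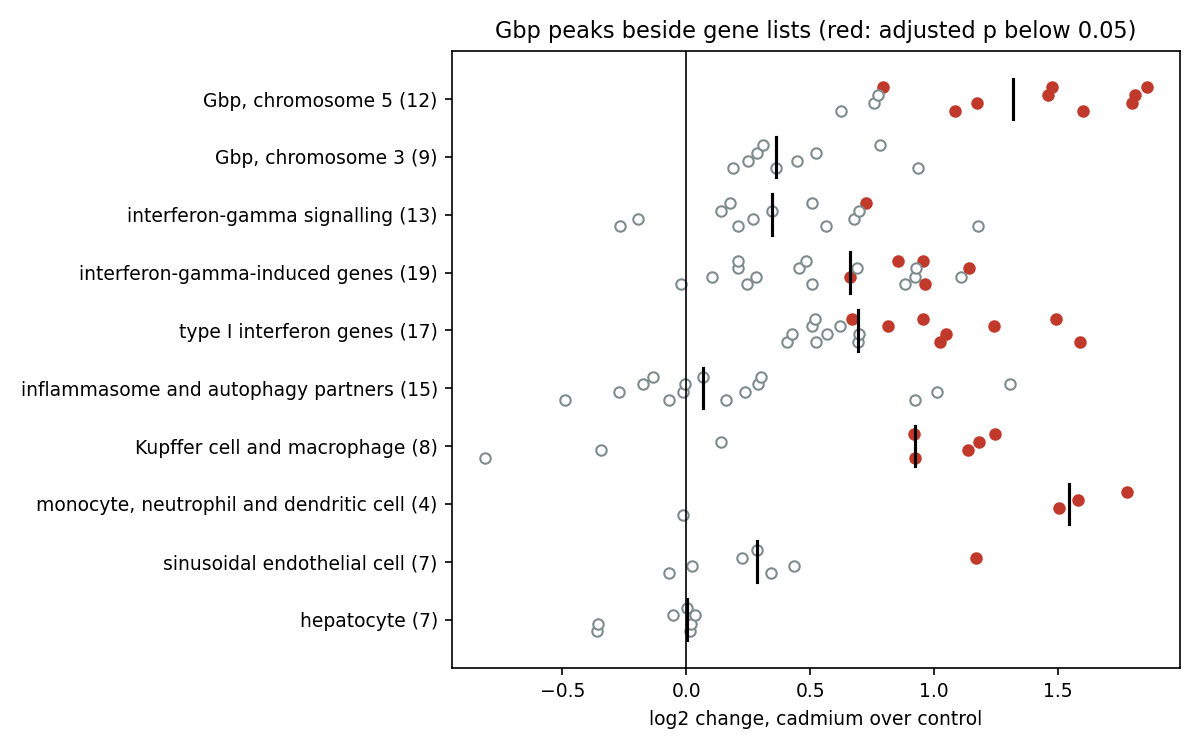
Log2 change of cadmium over control (x axis) of the Gbp peaks by cluster and of the leading peaks of 8 gene lists (y axis, number measured in parentheses), in red where the adjusted p was below 0.05, with black bars at the medians. The chromosome 5 peaks (median 1.32) lie to the right of the chromosome 3 peaks (0.36), and the lists range from hepatocyte markers (0.0036) to markers of monocytes and related cells (1.54).

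Some markers of macrophages and monocytes were also higher. Each marker is read by its most abundant peak, and over all genes 4.4% of such peaks were called higher and 2.4% lower. An unadjusted p below 0.05 was found at 21.8% of all tested peaks. Of 8 measured Kupffer cell and macrophage markers 5 were higher and 0 lower: Cd5l, Csf1r, C1qa, C1qb and C1qc, with log2 changes of 0.92 to 1.24. The 8 markers summed to 262 to 339 CPM in cadmium livers and 145 to 216 CPM in control livers. Clec4f, the marker most particular to Kupffer cells, was not called (80.1 ± 13.9 CPM in cadmium livers, 72.8 ± 8.81 CPM in control livers, SD, n = 3 each, log2 change 0.14), nor were Vsig4 (-0.81) and Marco (-0.35). Without cadmium replicate 3 none of the 8 was called, without cadmium replicate 2 it was 3, and without control replicate 3 it was 1. Over all peaks these leave-outs called 543, 1659 and 1078, where the main fit called 2325. The median log2 change of the 8 was 0.88, 0.86 and 0.76 in them, beside 0.92 in the main fit. Of 4 measured monocyte, neutrophil and dendritic cell markers 3 were higher, the chemokine receptor Ccr2 (1.78), the lysozyme gene Lyz2 (1.58) and the integrin Itgax (1.504). The other, Cx3cr1, was not called (log2 change -0.012, adjusted p = 0.973). Its peak is also annotated to Wdr48 and Gorasp1 and had 35.7 CPM in cadmium livers and 36.0 CPM in control livers. The list summed to 52.4 to 57.8 CPM in cadmium livers and 40.0 to 47.0 CPM in control livers, most of it from this shared peak. Ccr2 and Lyz2 were called in all 6 leave-outs, and Itgax in 1 of them. Markers of T and NK cells, the usual sources of interferon-gamma, were measured for 2 of 12 genes. They summed to 2.41 to 3.94 CPM in cadmium livers and 2.13 to 2.83 CPM in control livers. Neither was called by edgeR or DESeq2 or had an unadjusted p below 0.05. Most of the sum came from Cxcr6 (log2 change 0.035), whose peak is also annotated to Fyco1. Cd3e had few counts and stood at 0.84 (SE 0.51), with 0.83 CPM in cadmium livers, 0.47 CPM in control livers and overlapping groups. B cell markers were measured for 1 of 4 genes, Cd79b (0.60, not called). Of 7 endothelial markers Lyve1 was higher (1.17), and of 6 stellate cell markers Rgs5 (1.24) and Col1a1 (2.26) were. Rgs5 and Col1a1 were called in all 6 leave-outs, and Lyve1 in 1 of them. Of 3 cholangiocyte markers edgeR called 0 (2 had an unadjusted p below 0.05, and DESeq2 called 1), but 3 without cadmium replicate 2. Of 7 hepatocyte markers 0 were called by edgeR and by DESeq2, and 4 had a log2 change above 0, of at most 0.036. The 1 with an unadjusted p below 0.05 was Hnf4a, lower without overlap (437 CPM in cadmium livers, 559 CPM in control livers, log2 change -0.35, adjusted p = 0.154). Cps1 stood at -0.36 with overlapping groups. The 7 summed to 8070 to 9186 CPM in cadmium livers and 8342 to 9221 CPM in control livers, mostly from Apoa1, Serpina1a and Alb. The part of these cell types in the Gbp values was not tested.

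Outside the family, the profiles over the 6 samples most like the mean of the Gbp genes were those of Mageh1, Isg20, Ehbp1l1, Paqr9 and a peak annotated to Gm18853 and Gvin1. The measure was the root mean square difference of centred log2 CPM over 6 samples among 13038 leading peaks, which was 0.046 to 0.076 for these 5. Isg20 encodes an interferon-stimulated exonuclease (2.29 CPM in cadmium livers, 1.34 CPM in control livers, log2 change 0.78, adjusted p = 0.0849), and Gvin1 a very large interferon-inducible GTPase. The peak shared by Gm18853 and Gvin1 had 11.3 CPM in cadmium livers and 5.93 CPM in control livers (log2 change 0.93, adjusted p = 0.00803). Mageh1, the most alike (log2 change 0.81, adjusted p = 0.0455), Ehbp1l1 (0.72, adjusted p = 0.0235) and Paqr9 (0.86, adjusted p = 0.00855) were the other 3. The mean profile was taken over the genes of both clusters and was higher in every cadmium sample than in any control sample. Genes picked for likeness to it are therefore higher in cadmium livers by selection, and their p-values are not separate support.

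The authors' deposited table gives an adjusted p below 0.05 at 12 of the 21 Gbp peaks, where 9.92% of all peaks have one. Of the 21, the authors' deposited table marks 8 as Up, all on chromosome 5 (Gbp10, Gbp6 and 2 peaks of Gbp9), where 2.66% of all peaks are marked so.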

How the data were processed

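The submitters' processing notes name the build mm10 and, with no roles, DESeq2 4.1.0 (so written), MACS2 2.1.1, STAR 2.7.1a, cutadapt 1.1.8 and SAMtools 1.3.1. The deposited table holds raw counts for 1 common set of 37118 peaks in 6 columns. Column headers match library numbers that IP and input libraries share. Since rows are m6A peaks, the columns were taken to hold IP reads. The authors' deposited log2 fold change, p-value and adjusted p-value were used for comparison only. Strand, duplicates, multi-mapping reads and whether peaks were called per sample or pooled are not given in the sources used here. Exons and UTRs were not analysed here.

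The quasi-likelihood F test of edgeR 4.0.16 (R 4.3.3) was run on these counts with TMM scaling, filterByExpr (minimum count 10, total 15) and no block. The biological coefficient of variation was 19.4%. The SE is the absolute log2 change over the square root of F. DESeq2 1.42.0 was an alternative. Adjusted p-values run over all tested peaks. The test was tried on simulated data with known changes. Batch numbers in the labels pair samples: deviations from group means correlated at 0.149, 0.218 and 0.178 within batches 1, 2 and 3 and at -0.176 to 0.017 across them. The labels give 6 animals per group and do not say that each sample is a separate mouse, so p-values measure the spread between these samples.

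A gene's leading peak has the highest mean CPM over all 6 samples. For Gbp9 it was taken among the 5 peaks that RefSeq (GRCm38.p6) places in it. Named genes were the members, the called list genes with up to 4 uncalled ones per list in list order (with further uncalled genes named after their values were seen, such as Irf1, Atg16l1 and Il1b), neighbours within 500 kb, and the 5 most alike profiles. Members and lists were chosen with earlier results of these data known. Alternatives were DESeq2, RLE scaling, no filter, a minimum of 100 counts, the replicate block, no peaks over 1% of a sample, each sample left out, peaks with 1 symbol and counts summed per gene. The replicate block adds the batch to the model, since replicate and batch numbers are the same.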

Additional observations from a re-analysis of the deposited data

How the results depend on the processing

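Over 252 combinations of a Gbp peak and an alternative the log2 change never reversed, 13 lost a call and 7 gained one, all of them at Gbp9, Gbp4 and Gbp7 peaks. Gbp peaks called numbered 6 to 10 over the leave-outs (main 9), all on chromosome 5. With only peaks of 1 symbol they numbered 0, since all 12 chromosome 5 peaks carry more symbols. With counts summed per gene the count was 3 genes. On chromosome 3 DESeq2 and the replicate block each called 1 peak, of Gbp7, and the leave-outs 0. On chromosome 5 DESeq2 and the replicate block each called 11 peaks. Over all peaks DESeq2 called 3683 and the replicate block 3144 (edgeR main 2325), and leave-outs 543 (without cadmium replicate 3) to 1976. List genes called ran from 2 (without cadmium replicate 3) to 16 over the leave-outs (main 14), with 21 under DESeq2 and 19 with the replicate block. The difference between clusters ran from -1.02 to -0.87 over the leave-outs. Within-gene calls stayed at 0. The cause of these shifts was not tested. The Gbp8 and Gbp11 peaks were put through the alternatives after their values were seen. The single Gbp8 peak ran from -0.024 (without cadmium replicate 1) to 0.40 (without cadmium replicate 3). The cluster difference was not computed under DESeq2 or the block, and within-gene tests were not run with DESeq2.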
